A study of Homo sapiens with 20 samples.

Results

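The genes described here encode the machinery that copies DNA in S phase. They are 45 of the 46425 genes in the deposited tables and were chosen by name, as genes of proteins that recognize and license an origin, unwind it, synthesize and join the new strands, or supply deoxynucleotides. The series followed HUDEP-2, an immortalized line of wild-type erythroid progenitors from human umbilical cord blood, through erythroid differentiation in culture. RNA was sequenced before differentiation (day 0, proerythroblasts) and after each of days 1 to 8 and on day 12 in differentiation medium, with 2 libraries a day and 20 in all. Days 4 to 6 stand for basophilic, day 8 for polychromatic, and day 12 for orthochromatic erythroblasts and reticulocytes. Before differentiation the cells were kept in a serum-free expansion medium, which per the study's methods also held dexamethasone, and then moved to a medium with human serum, holo-transferrin, insulin and heparin, with erythropoietin, stem cell factor (SCF) and doxycycline in both. SCF was left out from day 6 and doxycycline from day 8, so that these changes of medium cannot be told apart from the days that follow them. HUDEP-2 carries viral oncogenes under a doxycycline-inducible promoter that keep it dividing. All libraries come from this 1 line, and no label says that the 2 libraries of a day came from separate cultures. The study calls its RNA-seq replicates of days 0 and 8 biological without saying what was repeated, so the p-values measure the spread between these libraries, part of which may be technical.

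Replication starts when the origin recognition complex (ORC), with CDC6 and CDT1, loads the MCM2-7 helicase onto DNA, a step that geminin (GMNN) restrains by binding CDT1. CDC45 and the GINS complex then turn the helicase on, primase and DNA polymerase alpha lay down primers, polymerases epsilon and delta extend them on the PCNA clamp that replication factor C (RFC) loads, replication protein A (RPA) covers single-stranded DNA, and FEN1 and LIG1 finish the lagging strand. Many of these genes are classical targets of E2F transcription factors. Erythroblasts divide several times while they fill with hemoglobin, then leave the cell cycle and expel the nucleus, after which no DNA is copied.

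All 45 genes were counted in the tables and all 45 passed the filter on low counts, together with the rest of the 16784 genes tested. The erythroid genes checked were present in every library, from HBB and HBA1 to GATA1 and KLF1. The platelet genes PF4 and PPBP and the lymphocyte genes CD3E and MS4A1 were at 0 in all 20 libraries. The leukocyte genes MPO and CSF1R were at or near 0, and CD68 lay between 1.89 and 30.6 TPM (a level scaled for transcript length and for the total of the library). ITGA2B, a megakaryocyte gene that early erythroid progenitors also express, averaged 39.8 TPM on day 0 (highest library of the course 69.8), 0.216 on day 8 and 0.747 on day 12, and its part in the results was not tested. Read counts summed to between 52131713 and 70358198 a library. Ribosomal RNA took 18.5% of the counts of 1 day 7 library and 17.5% of 1 day 8 library, both from the tables of separate days (set A), and 1.03% to 4.08% of the other 18. The other library of each day comes from the table of all days (set B). Globin transcripts took 0.859% and 0.819% of the counts on day 0 (sets A and B), 9.85% and 8.49% on day 8, and 28.2% and 33.7% on day 12.

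The promoters are shown first. Many of them hold the same short words, and whether these bear on the levels of the genes was not tested. Of the 45 genes, 39 had a window of 250 bases before to 50 bases after an annotated start in RefSeq (GRCh38.p14), and the window nearest to the start of the most abundant transcript was read. POLD3, GINS4, MCM4, MCM5, RPA3 and RPA2 had none. An E2F word, one of TTTCCCGC, TTTCGCGC, TTTGCCGC and TTTGGCGC on either strand, was found in 17 of the 39 windows (43.6%), against 3.31% of all 35116 windows of the table. The CCAAT word, again on either strand, was in 23 of them (59.0%), against 34.6% of all windows. Both kinds stood in 9 windows. The shares over all windows count every window of a gene, and genes whether expressed here or not, so they rest on an unlike set. Printed here are the bases just before the start for 5 of the genes in which no annotated exon reaches that stretch. They are from hg38 and in the direction of transcription. Capitals mark E2F words (GCGGGAAA, TTTGGCGC and GCGCGAAA as read on these strands) and CCAAT or its reverse, ATTGG.
MCM6 (chr2:135876444-135876563, minus strand): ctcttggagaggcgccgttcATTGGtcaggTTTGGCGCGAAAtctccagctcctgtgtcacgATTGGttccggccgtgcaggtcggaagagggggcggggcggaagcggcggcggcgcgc
CDT1 (chr16:88803669-88803788, plus strand): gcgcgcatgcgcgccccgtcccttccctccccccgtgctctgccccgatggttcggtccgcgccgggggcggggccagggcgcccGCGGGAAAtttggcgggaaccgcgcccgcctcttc
GINS2 (chr16:85688955-85689074, minus strand): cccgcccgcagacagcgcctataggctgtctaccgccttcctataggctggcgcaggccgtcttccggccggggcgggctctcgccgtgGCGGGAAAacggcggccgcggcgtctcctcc
CDC6 (chr17:40287759-40287878, plus strand): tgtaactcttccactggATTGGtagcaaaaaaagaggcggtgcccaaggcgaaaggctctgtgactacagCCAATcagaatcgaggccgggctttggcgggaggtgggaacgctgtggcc
PCNA (chr20:5119959-5120078, minus strand): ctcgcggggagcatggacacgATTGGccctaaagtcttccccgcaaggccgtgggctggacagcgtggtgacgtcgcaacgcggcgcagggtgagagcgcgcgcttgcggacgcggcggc
In MCM6 a pair of E2F words on opposite strands overlapped, and a CCAAT word, read as ATTGG, lay on either side of them. CDT1 and GINS2 held 1 E2F word each and no CCAAT word in the printed bases. CDC6 held 2 CCAAT words there, and its single E2F word lay elsewhere in its window. PCNA held 1 CCAAT word and no E2F word. Of the genes with such a stretch that are not printed, ORC1, MCM10 and RRM1 held CCAAT but no E2F word in it. FEN1 held neither. The letters describe these windows and do not show that a factor bound them.

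Summed over the 45 genes, no library before day 12 was under 3957 or over 6433 TPM, and the level was far lower on day 12. It was 5277 and 6076 TPM on day 0, 3957 and 5550 on day 8, and 267 and 221 on day 12, which is 5.05% and 3.64% of day 0. TPM is scaled to a total that includes ribosomal RNA and globin transcripts. As CPM, read counts scaled only to a library total, here the total outside globin and ribosomal RNA genes, the sum was 6791 and 7564 on day 0, 7574 and 8997 on day 8, and 831 and 809 on day 12. No gene was above its day 0 TPM on day 12 in either set, and 17 genes in set A and 19 in set B were under 1 TPM. These counts were not made over all genes tested. In bulk RNA, fewer replicating cells and less of these RNAs per cell cannot be told apart. Days 9 to 11 were not sampled, so the fall cannot be placed within this interval.

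**Figure D1:**
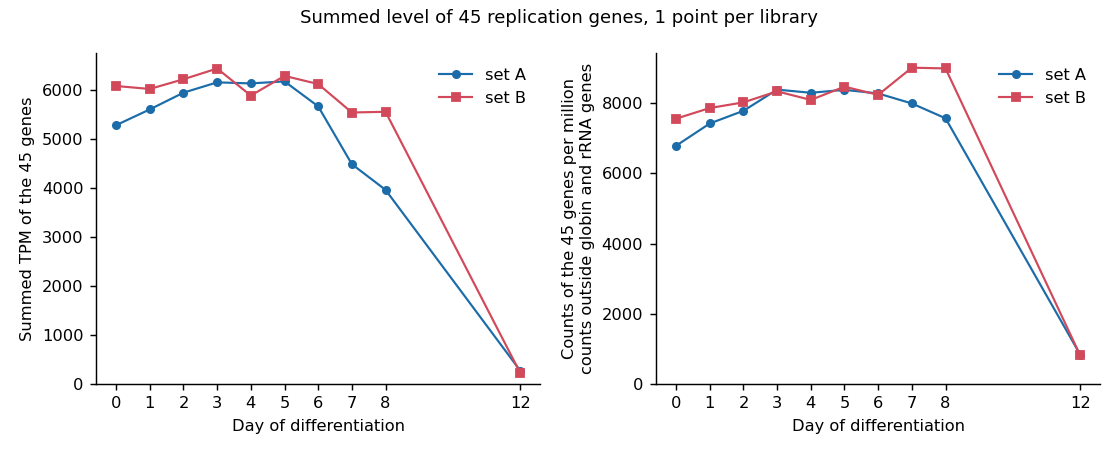
Summed level of the 45 replication genes in each library by day of differentiation, as TPM (left) and as CPM outside globin and ribosomal RNA genes (right); circles are set A and squares set B, 1 library a point, with lines joining the libraries of a set. The lowest library of days 0 to 8 is at 3957 TPM, and the day 12 libraries are at 267 and 221.

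The comparison of day 12 with day 8 asks what happened at the last step of the course. All 45 genes fell (edgeR quasi-likelihood test, all 20 libraries in one fit, Benjamini-Hochberg adjusted p under 0.05 over all genes tested), against 33.4% of all genes tested that fell and 23.8% that rose. The median log2 fold change over the 45 was -4.16, against -0.20 over all 16784 genes tested, and 9.15% of all genes had a lower value than this median. On the TPM scale the median over all genes tested was -0.68, a shift of -0.47 from the scale of the edgeR fit, and all 45 genes fell there too. In TPM, both day 12 libraries lay under all 18 libraries of days 0 to 8 for each of the 45 genes. How many of all genes tested did so was not counted. Compared with day 0 in the same set, 18 genes were left with under 1% of their TPM in both sets, and 3 genes (MCM7, RFC3 and RPA1) kept over 10% in both. For MCM7 most of this was in predicted transcripts, and its curated transcripts named below kept 3.68% and 1.56%. These shares depend on the scale. On that of the edgeR fit (CPM with TMM-normalized library totals), RFC3 was at 87.4 and 95.4 on day 0 and 64.3 and 74.8 on day 12. PCNA was at 310 and 293 on day 0 and 82.2 and 83.3 on day 12, and MCM3 at 378 and 392 and then 3.16 and 2.34. Genes over 10% or under 1% were not counted on that scale.

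The MCM2-7 helicase is a ring of 1 copy of each subunit, and its 6 genes were expressed within 2.86-fold (set A) and 2.71-fold (set B) of each other on day 0. On day 12 they were spread over 115-fold and 226-fold. MCM7, the most abundant of them, was at 364 and 452 TPM on day 0, between 307 and 494 (median 418) over the 14 libraries of days 1 to 7, 256 and 378 on day 8 and 52.99 and 54.4 on day 12. It was thus at 14.5% and 12.05% of its day 0 TPM on day 12. Of its TPM on day 12, 61.5% and 79.4% lay in the predicted transcripts described below. MCM7 is also the upper end of the day 12 spread, which therefore depends on these transcripts. MCM3 was at 297 and 323 TPM on day 0, between 152 and 329 (median 275) over the 14 libraries of days 1 to 7, 133 and 204 on day 8 and 0.699 and 0.373 on day 12. The day 12 libraries of MCM3 held under 1 TPM and did not overlap with any earlier library. MCM3 (log2 fold change -6.83 ± 0.21, adjusted p = 7.44e-11) and MCM6 (-6.77) fell furthest, followed by MCM4 (-5.45), MCM5 (-3.76) and MCM2 (-2.82). MCM7 fell least (log2 fold change -1.03 ± 0.18, adjusted p = 2.34e-04). Whether the falls of these subunits differ from each other was not tested. MCM5 was at 149 and 187 TPM on day 0, between 176 and 262 (median 215) over the 14 libraries of days 1 to 7, 158 and 212 on day 8 and 5.13 and 4.75 on day 12. In both sets each library of days 1 to 8 was above day 0, and day 12 was far below.

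**Figure D2:**
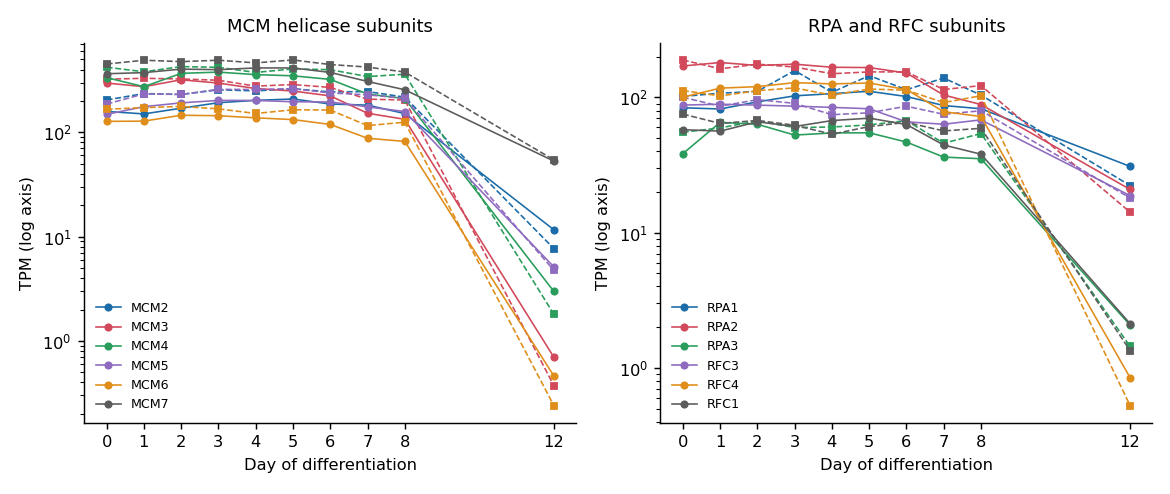
TPM on a log axis by day for the 6 subunits of the MCM helicase (left) and for RPA and RFC subunits (right); solid lines with circles are set A and dashed lines with squares set B, 1 library a point. The subunits of a complex run closer together to day 8 and fan out on day 12, where MCM7, RPA1, RPA2 and RFC3 are the highest.

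The tables list 5 transcripts of MCM7, and until day 8 the curated NM_005916 and NM_001278595 made up most of its TPM. Together these were at 350.2 and 445 TPM on day 0, 221 and 359 on day 8, and 12.9 and 6.93 on day 12, or 3.68% and 1.56% of day 0. Tested as transcripts, both fell from day 8 to day 12 (edgeR quasi-likelihood test over 75285 transcripts, log2 fold change -3.81 ± 0.33, adjusted p = 7.23e-06 and -3.70 ± 0.25, adjusted p = 9.54e-07). The 2 predicted transcripts XM_005250348 and XM_017012217 took 0.726% to 10.1% of the MCM7 TPM in the 18 earlier libraries and 61.5% and 79.4% in the day 12 libraries. XM_005250348 starts 854 bases inside the start of NM_005916. Its own change from day 8 to day 12 did not pass the test (log2 fold change 2.93 ± 1.14, adjusted p = 0.119). In the same test 114 of 254 transcripts of the 45 genes fell and 1 rose, against 11.4% and 2.85% of all transcripts tested. The one that rose (adjusted p = 0.0377) was a predicted transcript of RFC3, XM_011535173, from 0.0772 and 0.101 TPM on day 8 to 0.521 and 0.551 on day 12. How reads shared between transcripts were divided is not stated.

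**Figure D3:**
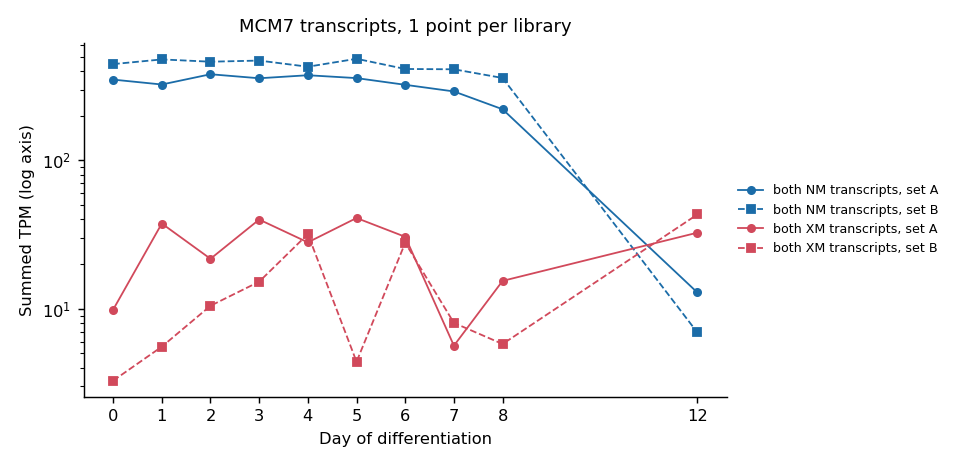
Summed TPM, on a log axis, of the 2 curated (NM) and of the 2 predicted (XM) transcripts of MCM7 named in the text, by day, 1 library a point (circles set A, squares set B). The curated pair drops to 12.9 and 6.93 TPM on day 12, while the predicted pair is at 32.6 and 43.2.

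Among the subunits of the origin recognition complex, the falls were larger for ORC1 and ORC6 than for ORC2 to ORC5. ORC1, the subunit that is built up and destroyed within each cell cycle, was at 41.7 and 53.7 TPM on day 0, between 42.4 and 65.96 (median 57.7) over the 14 libraries of days 1 to 7, 36.9 and 56.00 on day 8 and 0.779 and 0.587 on day 12 (log2 fold change -4.61 ± 0.18, adjusted p = 2.36e-10). ORC6, the smallest subunit, fell too (-3.84). ORC3 was at 55.7 and 80.1 TPM on day 0, between 46.1 and 79.4 (median 67.7) over the 14 libraries of days 1 to 7, 41.9 and 60.3 on day 8 and 10.1 and 7.15 on day 12 (log2 fold change -1.12 ± 0.15, adjusted p = 2.12e-05). In set A day 12 kept more of ORC3 than in set B. ORC4 was at 20.4 and 24.3 TPM on day 0, between 9.21 and 20.2 (median 15.8) over the 14 libraries of days 1 to 7, 8.63 and 14.1 on day 8 and 3.34 and 1.76 on day 12. Its fall in the edgeR fit was one of the smallest (log2 fold change -0.69 ± 0.21, adjusted p = 0.0124), and without the day 8 or the day 12 library of set B the adjusted p was 0.149 and 0.137. The day 12 libraries of ORC4 still lay under each earlier one. ORC2 was at 58.9 and 57.8 TPM on day 0, between 21.02 and 55.8 (median 47.7) over the 14 libraries of days 1 to 7, 17.6 and 34.1 on day 8 and 4.36 and 2.71 on day 12 (log2 fold change -1.42 ± 0.22, adjusted p = 9.98e-05). ORC5 was at 49.98 and 49.7 TPM on day 0, between 22.4 and 53.5 (median 43.8) over the 14 libraries of days 1 to 7, 19.6 and 28.7 on day 8 and 2.43 and 1.68 on day 12 (log2 fold change -2.10 ± 0.15, adjusted p = 6.78e-08). ORC2 and ORC5 had a lower TPM in both day 8 libraries than in any library of days 0 to 6, whereas for ORC4 the sets overlapped.

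CDC6 and CDT1, which bring the MCM ring to ORC, fell (-5.46 and -4.16), and so did GMNN (-2.81). GMNN, the inhibitor, was the most abundant of the 3 at 169.8 and 181 TPM on day 0, between 136 and 233 (median 196) over the 14 libraries of days 1 to 7, 119 and 169 on day 8 and 8.09 and 6.97 on day 12. CDT1 was at 92.2 and 101 TPM on day 0, between 90.3 and 147 (median 115) over the 14 libraries of days 1 to 7, 126 and 109 on day 8 and 2.06 and 2.68 on day 12. It was thus higher on day 8 than on day 0 in both sets before it was lost.

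The helicase activators CDC45, GINS1 to GINS4 and MCM10, which recruits polymerase alpha, formed the group with the lowest median, -5.84. CDC45 was at 68.4 and 77.7 TPM on day 0, between 49.7 and 90.1 (median 80.7) over the 14 libraries of days 1 to 7, 41.1 and 63.8 on day 8 and 0.319 and 0.216 on day 12 (log2 fold change -5.96 ± 0.20, adjusted p = 1.15e-10). GINS1 was at 38.2 and 55.7 TPM on day 0, between 23.6 and 57.3 (median 48.3) over the 14 libraries of days 1 to 7, 19.3 and 35.9 on day 8 and 0.106 and 0 on day 12. It held 17 counts in one day 12 library and 0 in the other, against 2364 and 3436 on day 8, and 0 counts allow up to 3. Its fitted value, -7.57, thus depends on how the 0 is treated. GINS2 (-6.32) and GINS4 (-5.71) fell with it. GINS3, another subunit of the same ring-shaped complex, was at 41.3 and 45.5 TPM on day 0, between 17.2 and 42.5 (median 32.3) over the 14 libraries of days 1 to 7, 15.8 and 22.2 on day 8 and 0.328 and 0.309 on day 12 (log2 fold change -4.38 ± 0.20, adjusted p = 7.31e-10). MCM10 fell least of the group (-2.75).

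The 4 genes of polymerase alpha and primase, which make the primers, fell by nearly the same amount, from -5.29 (POLA2) to -5.08 (PRIM1), with POLA1 at -5.24 and PRIM2 at -5.12. PRIM1, the catalytic primase subunit and the most abundant, was at 76.4 and 83.9 TPM on day 0, between 75.8 and 111 (median 89.7) over the 14 libraries of days 1 to 7, 64.9 and 93.3 on day 8 and 0.806 and 0.854 on day 12. It was under 1 TPM in both day 12 libraries, and no earlier library came near that. The subunits of the delta and epsilon polymerases were far apart. POLE2, the second subunit of polymerase epsilon, was at 48.6 and 49.9 TPM on day 0, between 28.8 and 64.5 (median 52.00) over the 14 libraries of days 1 to 7, 23.1 and 42.8 on day 8 and 0.0614 and 0 on day 12, and held 7 counts and 0 counts on day 12 against 1541 and 2264 on day 8. POLD3 was at 28.7 and 30.3 TPM on day 0, between 19.7 and 33.3 (median 27.8) over the 14 libraries of days 1 to 7, 15.04 and 24.7 on day 8 and 0.110 and 0.0553 on day 12 (log2 fold change -6.31 ± 0.27, adjusted p = 4.87e-10). Both genes were near 0 on day 12. POLD2, the second subunit of polymerase delta, was at 197 and 185 TPM on day 0, between 108 and 215 (median 182) over the 14 libraries of days 1 to 7, 79.9 and 115 on day 8 and 9.94 and 11.3 on day 12 (log2 fold change -1.80 ± 0.15, adjusted p = 3.04e-07), so that it stayed at 5.04% and 6.11% of day 0. The catalytic subunits POLD1 (-3.44) and POLE (-2.93) lay between.

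PCNA, the sliding clamp, was the most abundant of the 45 genes in each of the 18 libraries of days 0 to 8. It was at 586 and 584 TPM on day 0, between 526 and 761 (median 616) over the 14 libraries of days 1 to 7, 481 and 569.7 on day 8 and 44.1 and 33.99 on day 12. PCNA fell by 2.30 on the log2 scale (SE 0.20, adjusted p = 4.40e-07), which left it second to MCM7 among the 45 genes on day 12. The RFC subunits that load it spread apart. RFC3 was at 87.8 and 100.3 TPM on day 0, between 63.3 and 96.2 (median 85.2) over the 14 libraries of days 1 to 7, 68.2 and 79.7 on day 8 and 18.8 and 18.1 on day 12 (log2 fold change -0.61 ± 0.12, adjusted p = 7.55e-04), whereas RFC4 (-5.50), RFC2 (-4.46), RFC5 (-3.77) and RFC1 (-3.38) had lower values, a difference that was not tested. RPA1, the large subunit that binds single-stranded DNA, was at 83.8 and 102 TPM on day 0, between 82.1 and 158 (median 108) over the 14 libraries of days 1 to 7, 82.4 and 104 on day 8 and 30.9 and 22.3 on day 12. It kept 36.8% and 21.9% of its day 0 TPM, the highest share of any of the 45 genes, and on the scale of the edgeR fit (CPM with TMM-normalized library totals) it was at 168 and 193 on day 0, 268 and 277 on day 8 and 215 and 205 on day 12, above day 0. Its fall from day 8 was the smallest (log2 fold change -0.38 ± 0.12, adjusted p = 0.0154), and without the day 8 or the day 12 library of set B the adjusted p was 0.0667 and 0.0761. The 3 RPA subunits work as one complex, and the other two had lower values. RPA2 was at 171 and 189 TPM on day 0, between 104 and 181 (median 164) over the 14 libraries of days 1 to 7, 88.6 and 122 on day 8 and 20.9 and 14.2 on day 12 (log2 fold change -1.09 ± 0.13, adjusted p = 7.30e-06). RPA3, the smallest subunit, was at 38.4 and 55.2 TPM on day 0, between 36.2 and 67.4 (median 59.7) over the 14 libraries of days 1 to 7, 35.2 and 54.03 on day 8 and 2.07 and 1.44 on day 12 (log2 fold change -3.22 ± 0.20, adjusted p = 1.54e-08). MCM7, PCNA, RPA1, RPA2 and RFC3 made up 24.5% and 23.5% of the summed TPM of the 45 genes on day 0 and 62.8% and 64.5% on day 12. The day 12 share and the rank of MCM7 include its predicted transcripts.

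FEN1, the nuclease that trims Okazaki fragments, was at 181 and 179 TPM on day 0, between 113 and 198 (median 172) over the 14 libraries of days 1 to 7, 107 and 139 on day 8 and 5.53 and 4.88 on day 12 (log2 fold change -3.10 ± 0.15, adjusted p = 1.95e-09), and LIG1, the ligase that seals them, fell too (-3.96). The enzymes of nucleotide supply fell among the furthest. TYMS, which makes thymidylate, was at 354 and 493 TPM on day 0, between 304 and 473 (median 412) over the 14 libraries of days 1 to 7, 291 and 448 on day 8 and 2.98 and 3.04 on day 12 (log2 fold change -5.45 ± 0.22, adjusted p = 3.79e-10). RRM2, the small subunit of ribonucleotide reductase, was at 278 and 213 TPM on day 0, between 208 and 433 (median 316) over the 14 libraries of days 1 to 7, 269 and 377 on day 8 and 2.33 and 1.71 on day 12 (log2 fold change -5.87 ± 0.45, adjusted p = 1.36e-07). It differed between sets throughout, with set A above set B from day 0 to day 6 and below it on days 7 and 8. RRM1, the large subunit, fell by 4.42. TK1, the thymidine kinase of dividing cells, fell by 5.98.

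Before day 12 the genes changed by far less, and for 7 of the 12 genes that rose by day 8 the direction depended on the scale. On day 1 against day 0 none of the 45 passed the test (edgeR quasi-likelihood), while 0.131% of all genes tested were lower and 0.262% higher. At an unadjusted p under 0.05 there were 2, RPA3 and TK1, both higher, and DESeq2 and limma on TPM also called none. The log2 fold changes lay between -0.32 (ORC4) and 0.51 (RPA3), with POLD3 at -0.13, ORC2 at -0.23, MCM5 at 0.37 and TK1 at 0.42. The comparisons with day 0 share its 2 libraries, and those with day 8 share the day 8 libraries.

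On days 4 to 6 against day 0, 6 of the 45 genes rose and none fell, against 7.38% and 9.22% of all genes tested. They were TK1 (log2 fold change 0.81 ± 0.16, adjusted p = 0.00413), MCM5 (0.58), LIG1 (0.48), ORC1 (0.48), RPA3 (0.46) and RPA1 (0.39). The median over the 45 was 0.25, against -0.01 over all genes tested. Without the day 0 library of set A no gene passed, with a median of 0.14, and with the set of tables as a block 13 rose and 1 fell. At an unadjusted p under 0.05, 14 of the 45 were higher and 1 was lower, against 2217 and 2745 of all 16784 genes tested. The shares of all genes called without that library or with that block are not given here. The lowest values were those of GINS3 (-0.37), ORC4 (-0.33) and ORC2 (-0.13), none of which passed.

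Day 8 against day 0 is the contrast of polychromatic erythroblasts with proerythroblasts. There 12 of the 45 genes rose and 3 fell in the edgeR fit, against 17.7% and 19.4% of all genes tested. Limma on log2(TPM + 1) called 1 higher and 15 lower, and its shares over all genes are not given here. The median over the 45 was 0.23 in the edgeR fit and -0.36 in TPM, and the median over all genes tested was 0 and -0.34, so that the scale moved both medians. TK1 rose on both scales. It was at 84.7 and 138 TPM on day 0, between 109.6 and 263 (median 169.8) over the 14 libraries of days 1 to 7, 204 and 242 on day 8 and 1.73 and 0.872 on day 12 (log2 fold change 1.59 ± 0.19, adjusted p = 5.18e-05). Its adjusted p was under 0.05 in all 16 alternatives run. CDT1 rose in the edgeR fit (log2 fold change 0.90 ± 0.22, adjusted p = 0.00661), with a wider gap between the day 8 libraries (224 and 161 TMM-normalized CPM, against 102 and 105 on day 0). RRM2 had the second highest value but did not pass (log2 fold change 0.97 ± 0.37, adjusted p = 0.0533). The others that rose in the edgeR fit were MCM5 (0.73), MCM2 (0.61), RPA1 (0.60), PRIM1 (0.56), LIG1 (0.55), ORC1 (0.54), GINS2 (0.52), RPA3 (0.51), CDC6 (0.47) and RFC5 (0.38), and PRIM1, LIG1, ORC1, GINS2, RPA3, CDC6 and RFC5 were below 0 in TPM.

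GINS3, ORC5 and POLD2 fell from day 0 to day 8, and did so on both scales. The values were -0.60 ± 0.16 for GINS3 (adjusted p = 0.0106), -0.46 ± 0.14 for ORC5 (adjusted p = 0.0214) and -0.40 ± 0.15 for POLD2 (adjusted p = 0.0457) in the edgeR fit. ORC2 had a value of -0.52 and did not pass (adjusted p = 0.0792). In TPM, POLD2 was at 40.5% and 62.5% of day 0 and ORC2 at 29.9% and 58.9%. Without the 2 libraries rich in ribosomal RNA no gene fell and 10 rose, with a median of 0.42. Leaving out 1 library gave 4 higher and 1 lower without the day 0 library of set A, 8 and 0 without that of set B, 8 and 0 without the day 8 library of set A, and 6 and 3 without that of set B.

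**Figure D4:**
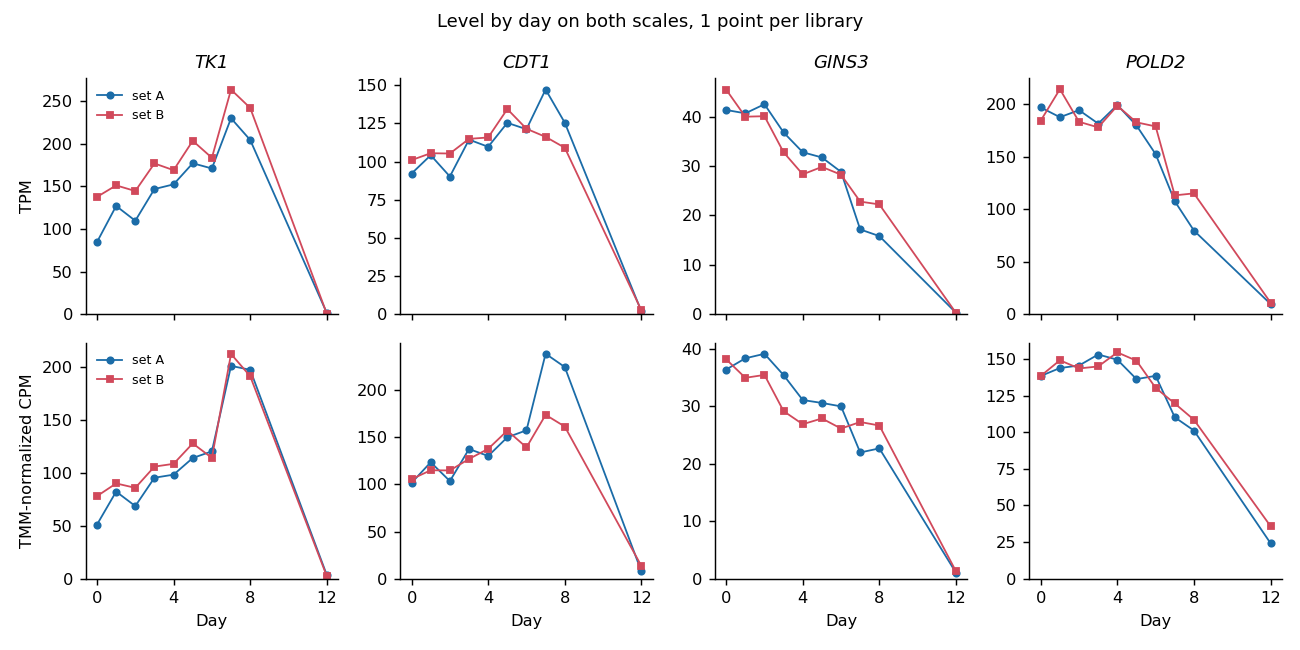
Level by day of TK1, CDT1, GINS3 and POLD2 in TPM (top row) and in TMM-normalized CPM (bottom row), 1 library a point, circles set A and squares set B. TK1 peaks on day 7 at 229.6 and 263 TPM and GINS3 and POLD2 are lower on days 7 and 8 than on day 0. All 4 are lowest on day 12.

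From days 4 to 6 to day 8, 2 genes rose and 2 fell in the edgeR fit, against 11.9% and 10.8% of all genes tested. On the TPM scale 17 fell and none rose. The median over all genes tested was -0.23 on that scale, and the shares of them called are not given here. TK1 rose (log2 fold change 0.77 ± 0.15, adjusted p = 0.00352). RFC3 rose in the edgeR fit only (0.32, adjusted p = 0.0322). POLD2 (-0.45) and ORC5 (-0.37) fell. ORC2 (-0.39), CDT1 (0.41) and RRM2 (0.35) were the next furthest from 0 and did not pass, and the last 2 were below 0 in TPM. Without the day 8 library of set A no gene passed in either direction. Leaving out the day 4, day 5 or day 6 library of set A, or the day 5 or day 6 library of set B, left 1 gene lower, and leaving out the day 4 or day 5 library of set B or the day 6 library of set A left 1 higher. Over all 10 days at once, the level of each of the 45 genes differed among days (edgeR, F test over the day coefficients), against 66% of all genes tested. RFC3 had the largest adjusted p (0.0368).

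The highest TPM values fell early and in the middle of the course. In set A, 13 genes had their highest TPM on day 5, 10 on day 2 and 9 on day 3, and in set B 15 had it on day 0 and 11 on day 3. No gene peaked on day 12 in either set. Within days 0 to 8 a gene's highest TPM exceeded its lowest by 1.98-fold at the median, from 1.34-fold (GINS2) to 3.34-fold (ORC2). The lowest of these 18 libraries exceeded the highest day 12 library by 39.2-fold at the median and by at least 2.59-fold (ORC4). The timing of the peak depends on the scale. As CPM outside globin and ribosomal RNA genes, the summed level was highest on day 3 in set A (8392) and on day 7 in set B (9018). Peak days of single genes were counted in TPM only.

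Genes around this machinery were read from lists chosen by function, and their counts from day 8 to day 12 stand against 33.4% of all genes tested that fell and 23.8% that rose. Of 10 licensing and firing factors, 9 fell from day 8 to day 12 and none rose, with a median of -4.66. CDC7, the kinase that acts on the MCM ring, was among them (-6.26) with TICRR (-5.87), which brings CDC45 to origins. LRWD1, an ORC-associated protein, did not pass (-0.12) and had a log2(TPM + 1) difference of -1.45. Of 17 fork and lagging strand factors, 14 fell and 2 rose, with a median of -4.31. The fall was steep for TOP2A (-6.40), which untangles sister DNAs, and for CLSPN (-6.50), whereas TOP1, which relaxes DNA also in transcription, rose in the edgeR fit (log2 fold change 1.31 ± 0.15, adjusted p = 6.95e-06) but had a log2(TPM + 1) difference of -0.12. POLD4, the small subunit of polymerase delta, rose (log2 fold change 2.17 ± 0.34, adjusted p = 9.99e-05) and was also higher in TPM (0.76). Thus 1 subunit of polymerase delta rose where POLD1, POLD2 and POLD3 fell.

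Of 9 other nucleotide enzymes, 7 fell and 1 rose, with a median of -3.55. RRM2B, the ribonucleotide reductase subunit used outside S phase, rose (log2 fold change 1.68 ± 0.39, adjusted p = 0.00222), opposite to RRM2, with a difference of 0.18 in log2(TPM + 1) and day 12 libraries on either side of those of day 8. Of 6 chromatin assembly genes 5 fell, UHRF1, which keeps DNA methylation through replication, furthest (-7.17). ASF1A did not pass (-0.23) and had a log2(TPM + 1) difference of -1.66. Of 13 E2F and pocket protein genes, which regulate many replication genes, 8 fell and 1 rose in the edgeR fit, with a median of -0.65. The repressors E2F8 (-6.12) and E2F7 (-3.93) and the pocket protein RBL1 (-6.79) fell, and E2F1 fell less (-1.05). E2F3 rose in the edgeR fit (1.14) with a log2(TPM + 1) difference of -0.24. E2F4 was at 0.03 and did not pass, with a log2(TPM + 1) difference of -1.40. All 13 genes had a negative difference on that scale, where the median over all genes tested was -0.68.

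From day 0 to day 8, 8 of the 13 E2F and pocket protein genes rose and 2 fell in the edgeR fit, with a median of 0.64, against 17.7% and 19.4% of all genes tested. E2F2, an activator with a known role in erythroid maturation, rose most (log2 fold change 3.06 ± 0.26, adjusted p = 3.08e-06), followed by E2F7 (1.93), E2F8 (1.18), E2F1 (1.16) and the dimer partner TFDP1 (1.07), while E2F5 (-4.03) and E2F3 (-0.45) fell, and all these had the same sign in log2(TPM + 1). Of the rest, E2F4 (-0.11), E2F6 (-0.51), RBL1 (-0.07) and TFDP2 (-0.33) had a negative difference on that scale, and RB1 (0.19) and RBL2 (0.03) a positive one. Of the licensing factors 1 rose and 2 fell in that contrast, of the fork factors 6 and 1, of the nucleotide enzymes 2 and 3, and of the chromatin assembly genes 2 and 1. For the 10 licensing factors these counts are near the shares over all genes. Among the 39 genes with a promoter window, the median change from day 8 to day 12 was -5.24 for the 17 with an E2F word (from -8.22 to -0.61) and -3.60 for the 22 without (from -5.98 to -0.38). RFC3 (-0.61), ORC3 (-1.12) and MCM7 (-1.03), among the genes that fell least, each held such a word. These medians are a description without a test.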

How the data were processed

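RNA of HUDEP-2 cells was sequenced from stranded poly(A) libraries. Per the labels, the authors used Trimmomatic 0.38, HISAT2 2.1.0 and StringTie 2.1.3b on hg38 and deposited read counts and TPM per transcript in 4 tables; how reads shared by transcripts were divided is not stated. Counts and TPM were summed by gene symbol for the 45 genes, a set of genes chosen, with the lists, when earlier results of these data were known. Of the columns, 40 were read and 23 (FPKM and another day 0 set) were not used. No column names a replicate, so that set A and set B only name the tables of separate days and the table of all days. Within a day, sampling noise did not account for the difference between the 2 libraries.

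Counts were tested with edgeR 4.0.16 (R 4.3.3; filterByExpr, TMM, 1 coefficient a day, quasi-likelihood F test) over 16784 genes, with Benjamini-Hochberg adjustment and a threshold of 0.05. The SE is the log2 fold change over the root of F. Alternatives were DESeq2 1.42.0, limma 3.58.1 on log2(TPM + 1) and log2(TPM + 0.1), other scalings and filters, edgeR's exact test, the set of tables as a block, single sets and leaving out each library. Leaving out the libraries over 10% ribosomal RNA and testing transcripts were added after seeing the data. The fit was also run on simulated counts in which a small part of the genes changed from day 8 to day 12. Those counts held no shift in composition like that of the data, so they could not check the normalization. Genes given in each library were the most abundant of each role, the 3 lowest and the 3 highest in each of the 5 contrasts, and those called against the majority of a contrast; ORC1, the 5 genes summed for day 12 and the MCM7 transcripts were chosen after their values were seen. Counts of 0 allow up to 3 counts (counting error only).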

Additional observations from a re-analysis of the deposited data

How the results depend on the processing

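The fall from day 8 to day 12 kept its direction for each of the 45 genes that could be tested under each alternative. Between 42 and 45 passed, with 43 tested where at least 10 counts were required in each library. The median over the 45 was -3.98 with upper-quartile normalization and with DESeq2, -3.86 with at least 10 counts in each library, -4.49 and -5.53 with limma on log2(TPM + 1) and log2(TPM + 0.1), -3.94 in set B alone, and -4.42 to -3.91 with 1 library left out (43 to 45 lower). RPA1 lost its call under upper-quartile normalization (adjusted p = 0.158), with at least 10 counts (0.0564), with only the days compared (0.248) and with the exact test (0.308), and also with DESeq2, ORC4 with only the days compared (0.113) and the exact test (0.117), and RFC3 with the same (0.0651 and 0.0693). These adjusted p-values come from edgeR, and the cause was not tested.

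From day 0 to day 8 the number of genes lower was 1 with every gene of at least 1 count, 0 with only the days compared, with the exact test and without the libraries over 10% ribosomal RNA, and 15 and 12 with limma on log2(TPM + 1) and log2(TPM + 0.1). The number higher was 4 with only the days compared and 1 and 1 with limma. The median turned to -0.36 and -0.37 with limma and was 0.27 in set B alone and 0.42 without the libraries rich in ribosomal RNA. Leaving out 1 library gave 0 to 3 lower, 4 to 8 higher and a median of 0.0867 to 0.397. With limma on the 2 TPM scales CDC6 turned to -0.19 and -0.19, GINS2 to -0.0748 and -0.0766, LIG1 to -0.0676 and -0.0682, ORC1 to -0.0568 and -0.0583, PRIM1 to -0.0415 and -0.0422, RFC5 to -0.36 and -0.37, and RPA3 to -0.0761 and -0.0779.

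From days 4 to 6 to day 8 the number lower was 1 with every gene of at least 1 count and with only the days compared, 17 and 16 with limma and 0 without the libraries rich in ribosomal RNA. The number higher was 1, 1, 0 and 0, and 0 in the same order. The median, 0.01 in the edgeR fit, was -0.0137 with every gene of at least 1 count, -0.43 and -0.43 with limma, -0.000296 with DESeq2, -0.14 in set A alone, and between -0.16 and 0.13 with 1 library left out, with -0.00244 without the day 4 library of set B and -0.16 without the day 8 library of set B. Leaving out 1 library gave 0 to 3 lower and 0 to 2 higher. With limma CDT1 turned to -0.0492 and -0.0496, RFC3 to -0.0810 and -0.0820, and RRM2 to -0.0455 and -0.0456. On days 4 to 6 against day 0 the number lower was 1 with at least 10 counts, the set of tables as a block, limma on both scales and DESeq2. The number higher was 13 with that block, 1 with limma on both scales, and 0 to 6 with 1 library left out.

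No paired analysis was possible because a column is named for its day alone, with no replicate number to match. The block by set of tables groups libraries by the table that holds them, and does not stand for a pairing given by the labels. With 2 libraries a day, small differences before day 12 are within reach of a single library. On day 12 the lowest genes rest on few counts, so that their folds carry less precision than their falls.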
